A study of Mus musculus with 55 samples.

Results

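The 10 genes described here are the DNA helicases known to unwind G-quadruplexes or belonging to the same families (Wrn, Blm, Recql, Recql4, Recql5, Brip1, Rtel1, Ddx11 and Pif1) and Atrx. They were chosen by name, with earlier results of these data known. They are 10 of 33924 genes in the first count table, and the rows with identical exons were found for all 10 among the 37310 rows of a second table. The libraries were bulk RNA sequencing of mouse oocytes, which the labels place in the ovary. Of 26 such libraries, 24 were used, and 2 were left out because they held 129192 and 127927 counts (c_DRB replicate 4 and rhau_sko replicate 6). Other assays of the 55 samples in the series were not analysed here.

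The growing-oocyte experiment set 3 libraries labelled Dhx36_sko against 3 controls; the study's extraction protocol describes oocytes of mice with a floxed Dhx36 allele and SKO, a term that the labels do not expand. The DRB experiment held 1 rhau_sko library, 2 rhau_sko libraries with DRB, 1 c library with DRB and 2 c libraries, where RHAU is another name of DHX36 and DRB is known as an inhibitor of transcription elongation. The GV experiment set 3 libraries labelled cPDS 12h against 3 labelled GV-C. Here cPDS is known as carboxypyridostatin, a ligand that binds RNA G-quadruplexes, and GV is the usual short form of germinal vesicle. The label GV-C names no time or vehicle, so by the labels cPDS and time in culture cannot be told apart. The Trim experiment set 3 libraries labelled Dhx36 3h Trim21 against 3 controls of the same time; TRIM21 is the ubiquitin ligase used with an antibody to degrade a chosen protein. Ages, doses, the number of oocytes per library and whether the replicates came from separate animals were not given in the sources used here, so p-values measure only the spread between these libraries, which may be technical.

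Guanine-rich DNA can fold into G-quadruplexes, stacks of guanine tetrads that stall polymerases and replication forks. RecQ helicases move 3′ to 5′ along DNA and repair or restart forks, whereas the iron-sulphur helicases Brip1, Rtel1 and Ddx11 and the helicase Pif1 move 5′ to 3′. Atrx is a chromatin remodeller that works with Daxx to place a histone H3 variant at guanine-rich repeats. DHX36 itself unwinds G-quadruplexes of RNA and DNA. Growing oocytes are arrested in meiotic prophase and do not replicate their DNA, and they store transcripts for maturation and the embryo.

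The first sequences show where a canonical G-quadruplex motif, 4 runs of GGG or longer separated by 1 to 7 bases, lay in the 250 bases before a member's start. RefSeq windows on GRCm38.p6 were held for 6 members, Atrx, Blm, Brip1, Recql (2 windows), Recql5 and Rtel1, and not for Wrn, Recql4, Ddx11 and Pif1. The motif was found in 2 of the 6. Over 32851 windows of the same length, 16.7% held it on either strand, 9.1% on the gene's own strand and 8.47% on the opposite strand. Brip1 held it on its own strand between positions -181 and -160 from the start, and Rtel1 on the opposite strand between -117 and -93. Capitals mark the matches, and the windows lie at chr11:86201194-86201443 (minus strand) for Brip1 and chr2:181319474-181319723 (plus strand) for Rtel1.
Brip1: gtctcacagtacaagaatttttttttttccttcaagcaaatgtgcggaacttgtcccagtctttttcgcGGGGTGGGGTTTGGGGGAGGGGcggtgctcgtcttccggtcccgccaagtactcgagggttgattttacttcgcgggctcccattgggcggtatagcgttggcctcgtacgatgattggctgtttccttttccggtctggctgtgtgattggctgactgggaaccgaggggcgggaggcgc
Rtel1: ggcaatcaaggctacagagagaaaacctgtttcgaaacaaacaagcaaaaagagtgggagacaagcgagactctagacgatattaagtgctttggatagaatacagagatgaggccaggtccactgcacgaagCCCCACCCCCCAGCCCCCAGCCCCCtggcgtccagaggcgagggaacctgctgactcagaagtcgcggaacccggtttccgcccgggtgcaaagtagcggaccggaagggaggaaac
The windows of Atrx (chrX:105929373-105929622, minus strand) and Blm (chr7:80534999-80535248, minus strand) are shown because Atrx had the largest change of a tested member in growing sko oocytes and Blm the smallest p with cPDS. Neither held the motif on either strand. A match describes letters and not a folded structure, and no match says only that these letters are not in this window.
Atrx: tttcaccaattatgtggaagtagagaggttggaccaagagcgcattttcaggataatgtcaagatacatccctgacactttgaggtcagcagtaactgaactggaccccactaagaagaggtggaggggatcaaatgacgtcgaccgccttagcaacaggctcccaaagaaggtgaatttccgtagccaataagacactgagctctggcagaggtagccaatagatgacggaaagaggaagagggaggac
Blm: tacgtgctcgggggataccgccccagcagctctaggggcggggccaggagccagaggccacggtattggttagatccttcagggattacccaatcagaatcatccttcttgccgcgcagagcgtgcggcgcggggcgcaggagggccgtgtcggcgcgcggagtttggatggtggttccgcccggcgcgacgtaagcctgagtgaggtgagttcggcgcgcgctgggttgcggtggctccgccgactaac

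The used libraries held between 7452742 and 65444652 counts. Dhx36 was lower in both sko experiments, in the direction of their labels, and its transcript was also lower in the Trim21 libraries, whose label concerns the protein, which these counts do not measure. Its level in normalised CPM, counts scaled to the size of the library, was 2.83, 1.95 and 1.73 CPM in growing sko libraries, against 7.34, 8.06 and 10.9 in growing controls (log2 fold change -2.01 ± 0.24 SE, adjusted p = 4.24e-06, edgeR). The log2 fold change was -2.72 ± 0.17 between the sko and c libraries of the DRB experiment and -1.99 ± 0.18 between Trim21 and control libraries, where Trim21 itself rose by 9.17 ± 0.13 on the log2 scale. With cPDS, Dhx36 rose by 0.73 ± 0.10 on the log2 scale (adjusted p = 1.82e-05, edgeR). All 12 oocyte markers had counts in every group. No spike-in is named in the sources used here, so each level is a share of its library.

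Levels per exon length were compared as RPKM, the CPM divided by the exon length in kilobases. Atrx had the highest mean level of the 10 in each of the 4 control groups, with 44.2 ± 1.09 RPKM in GV_C, 61.5 ± 1.96 in c, 50.0 ± 1.63 in growing controls and 39.7 ± 11.9 in Trim controls (SD, n = 3, 2, 3 and 3). Brip1 was next in GV_C at 31.6 ± 1.95 RPKM (SD, n = 3), in c and in growing controls. In Trim controls, Ddx11 averaged 20.5 ± 2.48 and Brip1 20.4 ± 5.06 RPKM (SD, n = 3 each), and their libraries overlapped. The order of these 2 genes could not be told in that group.

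The middle of the order was held by Blm, Ddx11 and Wrn, at 13.5 ± 0.489, 12.1 ± 1.11 and 8.77 ± 1.39 RPKM in GV_C (SD, n = 3). Blm and Ddx11 overlapped there, and all Ddx11 libraries were above all Wrn libraries. This order differed between control groups. In c, Ddx11 at 8.64 ± 0.109 RPKM (SD, n = 2) lay below Wrn and Blm without overlap, and in growing controls Ddx11 and Wrn overlapped. Recql and Recql5 followed at 3.28 ± 0.214 and 3.05 ± 0.181 RPKM in GV_C and overlapped, with Rtel1 below them at 1.97 ± 0.320 RPKM (SD, n = 3). Recql shares 38.5% of its exon bases with Pyroxd1 on the opposite strand, so its level per length is uncertain. Pif1 at 0.650 ± 0.0549 and Recql4 at 0.241 ± 0.0671 RPKM were the lowest pair in all 4 control groups. Among all genes tested in the GV experiment, the mean RPKM of Atrx in GV_C stood at percentile 89.3, that of Brip1 at 85.9, that of Pif1 at 27.9 and that of Recql4 at 14.3.

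**Figure D1:**
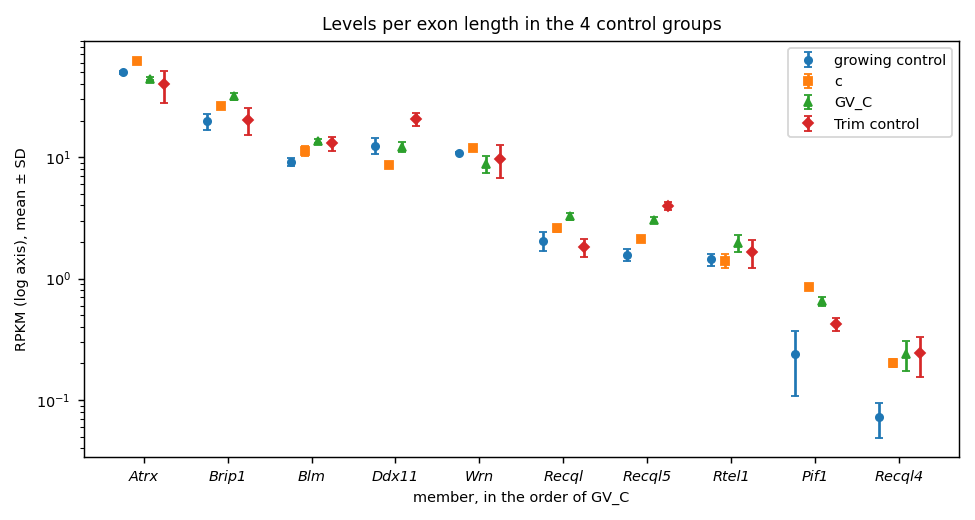
Mean level of each of the 10 genes in RPKM (CPM per kilobase of exon, log axis) in the 4 control groups, with bars of 1 SD (n = 3, 2, 3 and 3 libraries). Atrx is the highest point of each group and Recql4 the lowest, from 44.2 to 0.241 RPKM in GV_C.

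In growing oocytes, Atrx fell most among the members tested and Blm was the only one called higher. Recql, Brip1 and Ddx11 were called lower as well. Of 9 members tested, 1 was higher and 4 were lower in sko than in control libraries, where 53.7% of 14081 genes tested were called in either direction, 28.5% higher and 25.2% lower. The share of members called was thus near that of all genes. The median log2 fold change was -0.40 over the 9 members and 0.02 over all genes tested.

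Among the RecQ members, Blm, which dissolves recombination intermediates, had 61.8, 63.1 and 66.2 CPM in sko libraries, against 41.3, 47.0 and 46.7 CPM in control libraries. Every sko library lay above every control, and Blm rose by 0.50 ± 0.12 on the log2 scale (adjusted p = 0.00235, edgeR). Recql, a helicase of fork restart, had 9.42, 10.3 and 10.4 CPM in sko libraries, against 18.3, 15.0 and 12.8 CPM in controls, and all sko libraries lay below the controls. It fell by 0.62 ± 0.16 on the log2 scale (adjusted p = 0.00487, edgeR). Of the Recql exon bases, 38.5% are shared with Pyroxd1 on the opposite strand, so reads of the pair may be mixed. Pyroxd1 was much lower, with 0.854 to 1.77 CPM in sko and 0.565 to 0.914 CPM in control libraries, and was called in no comparison.

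Recql5, which binds RNA polymerase II, had 7.87, 8.22 and 9.01 CPM in sko and 9.55, 11.6 and 11.9 CPM in control libraries. The groups did not overlap, but the log2 fold change of -0.40 ± 0.16 missed the threshold (adjusted p = 0.0521, edgeR). It passed with RLE size factors (adjusted p = 0.0420), with DESeq2 (0.0498) and without growing control replicate 1 (0.0210, edgeR). Wrn, the Werner syndrome helicase and exonuclease, had 78.6, 79.9 and 70.4 CPM in sko and 70.1, 69.7 and 68.6 CPM in control libraries, a log2 fold change of 0.14 ± 0.12 that was not called (adjusted p = 0.343, edgeR). Recql4, linked to replication initiation, was too low to test, with 3, 3 and 2 counts in sko and 8, 12 and 8 counts in control libraries. With no filter on low counts its adjusted p was 0.141 (edgeR).

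Of the iron-sulphur helicases, Brip1, the BRCA1-binding helicase, had 103, 90.4 and 82.3 CPM in sko libraries, against 165, 155 and 123 CPM in controls. The highest sko library was below the lowest control, and the log2 fold change was -0.69 ± 0.14 (adjusted p = 5.42e-04, edgeR). Ddx11, a helicase of sister chromatid cohesion, had 32.4, 33.3 and 36.5 CPM in sko libraries, against 44.0, 51.3 and 59.6 CPM in controls. Here too the groups were apart, with a log2 fold change of -0.60 ± 0.14 (adjusted p = 0.00156, edgeR). Rtel1, which opens telomere loops, had 11.7, 11.7 and 11.9 CPM in sko and 8.28, 9.89 and 10.4 CPM in control libraries. Its groups were apart as well, but the log2 fold change of 0.30 ± 0.16 was not called (adjusted p = 0.114, edgeR). Scaling by library size alone, which moved the median of all genes to a log2 fold change of 0.21, put Rtel1 (0.49, adjusted p = 0.0302) and Wrn (0.32, adjusted p = 0.0305, edgeR) past the threshold. With that scaling 4823 genes were called higher and 2386 lower, whereas TMM factors gave 4017 higher and 3549 lower.

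Pif1, which removes secondary structures from DNA, had 0.800, 1.53 and 1.13 CPM in sko and 0.748, 0.699 and 1.73 CPM in control libraries, and these ranges overlapped (adjusted p = 0.822, edgeR). Atrx had 338, 344 and 326 CPM in sko libraries, against 740, 787 and 751 CPM in controls. The sko libraries lay far below the controls with little spread in either group. Atrx fell by 1.18 ± 0.11 on the log2 scale (adjusted p = 4.88e-07, edgeR). Libraries of the 2 groups did not overlap for 8 of the 9 members tested, beside 60.9% of all genes tested. The calls of Blm, Recql, Brip1, Ddx11 and Atrx held in all 10 alternatives run for this comparison.

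The summed CPM of 16 granulosa and cumulus markers moved with genotype in this experiment, with 84.7 to 91.1 CPM in sko and 28.6 to 33.1 CPM in control libraries. Fshr, the receptor of follicle-stimulating hormone, gave 35.1 to 38.1 CPM of that sum in sko and 0.283 to 0.443 CPM in control libraries. Of 11 granulosa and cumulus markers tested, 6 were higher and 0 lower. Beside Fshr these were Cyp19a1, the aromatase gene (20.1 CPM in sko and 9.28 CPM in control libraries on average), Kitl (13.4 CPM in sko, 7.92 CPM in control), Nr5a2 (8.71 CPM in sko, 5.69 CPM in control), Hsd3b1 (3.26 CPM in sko, 1.61 CPM in control) and Ptgs2 (0.866 CPM in sko, 0.192 CPM in control). Of the 5 tested but not called, Hsd17b1 (-0.93 ± 0.38, adjusted p = 0.0515, edgeR) and Inha (-0.65 ± 0.37) had negative log2 fold changes. Those of Inhba (0.80 ± 0.76), Gja1 (0.53 ± 0.32) and Has2 (0.42 ± 0.66) were positive. The 5 markers not tested were low, among them Amh and Foxl2 at 0 to 0.0780 CPM in sko and 0 to 0.166 CPM in control libraries, and Lhcgr at 0 in controls. The summed CPM of 12 oocyte markers was 30133 to 35326 in sko and 35936 to 40807 in control libraries, with 2 higher and 4 lower. The 9 theca and stroma markers summed to 4.64 to 8.43 CPM in sko and 2.80 to 3.43 CPM in controls, where Col1a2, Col3a1 and Acta2 were at 0, and 9 immune, endothelial and blood markers summed to 8.89 to 11.1 CPM in sko and 13.2 to 14.3 CPM in controls. Of 3 theca and stroma markers tested, Cyp17a1 and Dcn were higher, and of 4 immune, endothelial and blood markers tested, Ptprc was higher (1.5 CPM in sko, 0 in controls on average) and Cd68 and Pecam1 were lower. The part of other cells in the members' changes was not tested, and in bulk libraries fewer cells of a type and less RNA per cell cannot be told apart.

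**Figure D2:**
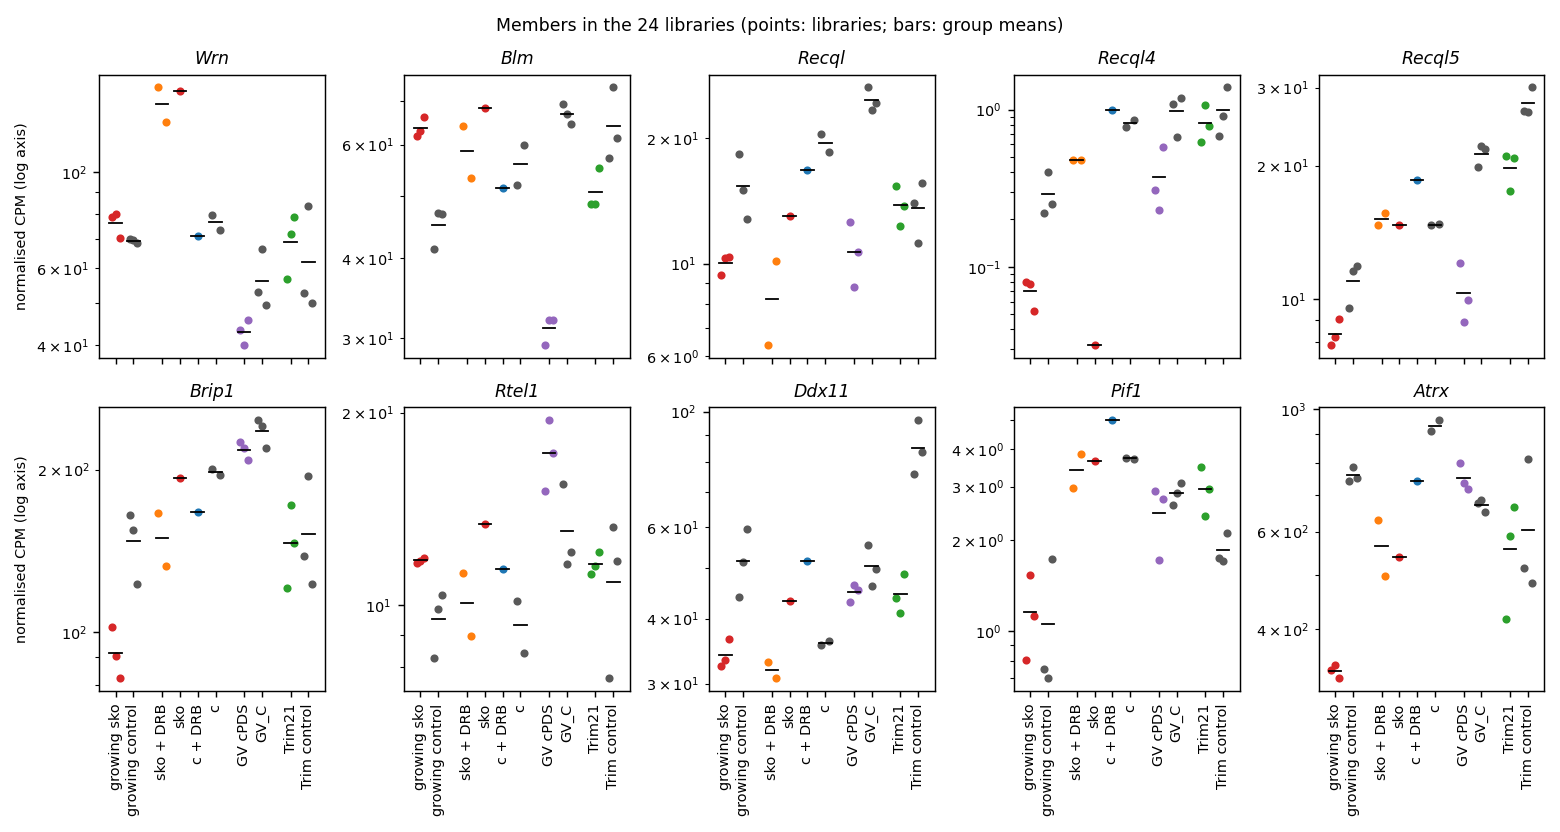
Normalised CPM (log axis) of each gene in each of the 24 libraries, as points, with bars at the group means; each axis has its own range. Atrx in growing oocytes (326 to 344 CPM in sko, 740 to 787 CPM in control) and Blm in GV oocytes with cPDS show groups that are far apart, while Pif1 overlaps in growing oocytes.

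The lists of pathway partners in growing oocytes are read beside all genes tested there, of which 28.5% were higher and 25.2% lower. Of 17 tested partners of the RecQ helicases in resolving recombination intermediates, 0 were higher and 12 were lower, with a median log2 fold change of -0.61. Mus81, the catalytic subunit of a structure-selective nuclease, averaged 13.3 CPM in sko and 41.4 CPM in control libraries (log2 fold change -1.63 ± 0.14, adjusted p = 9.64e-08, edgeR). Rpa1, the large subunit of the single-strand binding protein RPA, averaged 69.0 CPM in sko and 142 CPM in control libraries (-1.04 ± 0.13). Among 17 tested Fanconi and BRCA1 partners, 0 were higher and 5 were lower, with a median of -0.22, and Brca2, a mediator of homologous recombination, fell by 0.80 ± 0.11 and Fancm, a DNA translocase, by 0.54 ± 0.14 on the log2 scale. The share of Fanconi and BRCA1 partners called was below that of all genes.

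Of 12 telomere partners, 1 was higher and 4 were lower. The shelterin genes Tinf2 and Terf1 fell by 1.46 ± 0.13 and 0.72 ± 0.12 on the log2 scale. Of 21 replication fork and cohesion partners, 6 were higher and 4 lower, with Timeless, a fork protection factor, at a log2 fold change of -1.50 ± 0.12 and the cohesin subunit Smc1a at 1.10 ± 0.12. Of 22 Atrx and H3.3 chromatin partners, 6 were higher and 5 lower, among the higher the chromatin protein Morc3 (1.06 ± 0.13). Of 13 tested genes that build or deliver iron-sulphur clusters, 2 were higher and 5 lower, with Nubp2 at 1.22 ± 0.13 and Ciapin1 at -0.61 ± 0.12 on the log2 scale.

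In the DRB experiment, Wrn was the only member called higher in sko libraries, by 2.01-fold, while Recql and Atrx were called lower. Genotype was fitted with DRB as a covariate over 6 libraries, 3 of each genotype. All 10 members were tested, and 1 was higher and 2 were lower, where 36% of 16784 genes tested were called, 19.2% higher and 16.8% lower. The share of members called was near that of all genes. The median log2 fold change was -0.18 over the members and 0.01 over all genes.

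Wrn had 153 CPM in the sko library without DRB and 156 and 130 CPM in the sko libraries with DRB, against 79.6 and 73.4 CPM in c and 71.3 CPM in c with DRB. No sko library overlapped a c library, with or without DRB. The log2 fold change was 1.00 ± 0.12 (adjusted p = 1.02e-04, edgeR), and it was called in all 13 alternatives, from 0.94 to 1.05. Recql had 13.0 CPM in the sko library without DRB and 6.38 and 10.1 CPM with DRB, against 20.5, 18.5 and 16.7 CPM in c replicates 1 and 2 and c with DRB. The genotypes did not overlap, and the log2 fold change was -0.80 ± 0.22 (adjusted p = 0.0146, edgeR). The call was lost without c_DRB replicate 3 (-0.59, adjusted p = 0.205) and when sko was set against c among the libraries without DRB alone (-0.59, adjusted p = 0.198, edgeR).

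Atrx had 540 CPM in the sko library without DRB and 630 and 498 CPM with DRB, against 913 and 955 CPM in c and 742 CPM in c with DRB. All sko libraries were below all c libraries. Atrx fell by 0.59 ± 0.13 on the log2 scale (adjusted p = 0.00470, edgeR). Without rhau_sko replicate 5 the log2 fold change was -0.43 (adjusted p = 0.0624), and between the libraries with DRB alone it was -0.43 (adjusted p = 0.0604, edgeR).

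Recql4 had 1 count in the sko library without DRB and 11 and 13 counts with DRB, against 29, 35 and 34 counts in the c libraries. The groups were apart in CPM, but the log2 fold change of -2.26 ± 0.92 was not called (adjusted p = 0.0782, edgeR), and it leans on the library with 1 count. It passed with no filter on low counts (adjusted p = 0.0360, edgeR), with DESeq2 (0.0366), without c_DRB replicate 3 (0.0464) and among the libraries without DRB (0.0355, edgeR). Of the Recql4 exon bases, 10.4% are shared with Mfsd3 on the opposite strand, so reads of this pair may be mixed too. Mfsd3 had 2.5, 3.19 and 3.56 CPM in sko libraries, against 1.26, 1.43 and 1.81 CPM in c libraries (log2 fold change 0.90 ± 0.33, adjusted p = 0.0564, edgeR), and in growing oocytes it was called higher in sko (1.56 ± 0.49, adjusted p = 0.0133, edgeR).

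The other RecQ members were not called. Blm had 68.4, 64.2 and 53.2 CPM in sko libraries, against 52.0, 59.9 and 51.3 CPM in c libraries, and Recql5 had 14.7, 14.7 and 15.7 CPM in sko, against 14.7, 14.7 and 18.6 CPM in c. None of the 3 iron-sulphur helicases was called. Brip1 had 193, 166 and 133 CPM in sko, against 201, 195 and 167 CPM in c, and Rtel1 had 13.4, 11.2 and 8.95 CPM in sko, against 10.2, 8.44 and 11.4 CPM in c. Both overlapped between genotypes.

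Ddx11 had 43.2 CPM in the sko library without DRB and 33.0 and 30.7 CPM with DRB, against 35.6 and 36.2 CPM in c and 51.7 CPM in c with DRB. The sko library was thus above the c libraries without DRB, and both sko libraries were below the c library with DRB. Between the libraries with DRB alone, its log2 fold change was -0.73 ± 0.17 (adjusted p = 0.0128, edgeR), and without DRB it was 0.26 ± 0.17 (adjusted p = 0.321). The interaction of DRB and genotype for Ddx11 was -0.99 ± 0.24 (adjusted p = 0.359, edgeR). Pif1 had 3.64, 2.97 and 3.85 CPM in sko, against 3.74, 3.72 and 4.97 CPM in c, and was not called. Pooled over DRB, genotypes did not overlap for 4 of 10 members, beside 48.1% of all genes.

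Granulosa and cumulus markers summed to 125 to 188 CPM in the sko libraries and 76.7 to 119 CPM in the c libraries. Of 10 tested, 5 were higher and 0 lower: Fshr (23.5 CPM in sko, 1.34 CPM in c, log2 fold change 4.32 ± 0.55), Cyp19a1 (61.2 CPM in sko, 34.6 CPM in c), Nr5a2 (36.5 CPM in sko, 21.7 CPM in c), Hsd3b1 (3.55 CPM in sko, 1.31 CPM in c) and Has2 (0.864 CPM in sko, 0.177 CPM in c), as means of the 3 libraries of each genotype. Of the 5 tested but not called, Fst (-1.91), Ptgs2 (-1.36), Gja1 (-0.69) and Kitl (-0.30) had negative log2 fold changes. That of Inhba (0.57) was positive. Amh, not tested, was at 0 in all 6 libraries, and Foxl2 was at no more than 0.262 CPM in sko and 0.0984 CPM in c. Oocyte markers summed to 8753 to 10460 CPM in sko and 13632 to 14941 CPM in c, and of 12 tested 0 were higher and 7 lower. Theca and stroma markers summed to 6.05 to 9.78 CPM in sko and 3.13 to 4.72 CPM in c, with Col3a1 at 0 in both, and immune, endothelial and blood markers to 23.7 to 33.0 CPM in sko and 41.8 to 49.4 CPM in c, with Hba-a1 and Hbb-b1 at 0 in both. Of those tested, Dcn was higher (5.01 CPM in sko, 1.42 CPM in c, log2 fold change 2.18 ± 0.33), as was Ptprc (3.6 CPM in sko, 0.0455 CPM in c, 6.45 ± 0.73), while Pecam1, Cd68 and Kdr were lower. Their part in the changes of Wrn, Recql and Atrx was not tested.

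Beside 19.2% of all genes called higher and 16.8% called lower in this comparison, 0 of 17 RecQ and dissolution partners were higher and 7 were lower, with Mus81 at -0.86 ± 0.15 and Rpa1 at -0.64 ± 0.12 on the log2 scale. Of 18 Fanconi and BRCA1 partners, 2 were higher and 2 lower, with Usp1, the deubiquitinase of FANCD2, at 0.59 ± 0.10 and the nuclease Fan1 at -2.29 ± 0.55. Of 12 telomere partners, 4 were higher and 4 lower, with Tinf2 at -1.09 ± 0.12 and Terf2ip at 1.95 ± 0.34. Of 20 tested fork and cohesion partners, 4 were higher and 1 lower, with Timeless at -1.21 ± 0.12 and the cohesin release factor Wapal at 0.64 ± 0.09. Of 22 Atrx and H3.3 partners, 7 were higher and 3 lower, with the histone gene H3f3b at 0.65 ± 0.10 and the histone chaperone Asf1b at 0.59 ± 0.11. Of 14 iron-sulphur cluster genes, 2 were higher and 3 lower, with Ercc2, a helicase of nucleotide excision repair, at 2.38 ± 0.34.

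The change with sko was compared between the 2 experiments in 1 fit of 12 libraries, since both lie in the same table. For Wrn the sko change in growing oocytes minus that in the DRB experiment was -0.84 ± 0.17 on the log2 scale (adjusted p = 0.00230, edgeR), and it was called in all 14 alternatives, from -0.98 to -0.66. For Atrx the difference was -0.56 ± 0.17 (adjusted p = 0.0353, edgeR). That call was lost with library size alone (-0.38, adjusted p = 0.142), without c replicate 1 (adjusted p = 0.0624), without c_DRB replicate 3 (-0.38, adjusted p = 0.280) and without rhau_sko_DRB replicate 7 (adjusted p = 0.0663, edgeR).

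The difference for Brip1, -0.56 ± 0.19, missed the threshold (adjusted p = 0.0656, edgeR), with a range of adjusted p from 0.00721 to 0.311 over 14 alternatives, 4 of them past the threshold. The other 7 members were not called. Thus 2 of 10 members differed between the experiments, both with a negative difference, where 12.5% of 17437 genes did so in either direction. With TMM factors 1330 genes (7.63%) were higher and 858 (4.92%) lower in this test, and with library size alone, which put the median of all genes at 0.25, against 0.08 with TMM factors, 1915 were higher and 402 lower. The labels do not say how the oocytes of the 2 experiments differ in stage or batch, so these cannot be told apart from the experiment.

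**Figure D3:**
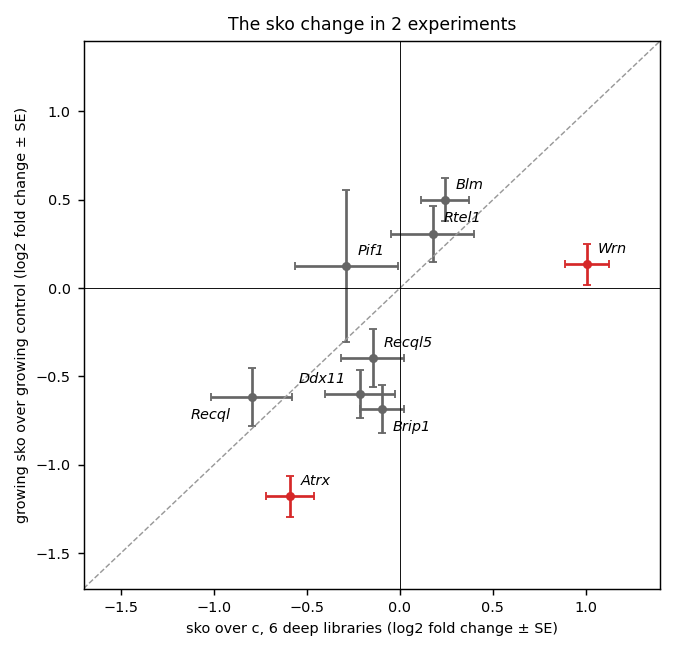
Log2 fold change of sko over control in growing oocytes (vertical) against that of sko over c in the DRB experiment (horizontal), with bars of 1 SE, for the 9 genes tested in both; the dashed line marks equal change. Wrn (0.14 and 1.00) and Atrx (-1.18 and -0.59), in red, are the genes whose change differed in the test of the difference.

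DRB itself moved no member past the threshold. Of 10 members, 0 were called by edgeR with genotype as a covariate, 1 had an unadjusted p under 0.05, and DESeq2 also called 0. Across 16784 genes, edgeR called 2 (0.0119%), 1 higher and 1 lower (0.00596% each), 2099 had an unadjusted p under 0.05 and DESeq2 called 471, so the 6 libraries gave few calls for any gene. The same libraries served the comparison of genotypes above. The median log2 fold change was -0.08 over the members and 0.00 over all genes tested.

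Brip1 was the member with the smallest p. It had 166 and 133 CPM in sko libraries with DRB and 167 CPM in c with DRB, against 193 CPM in sko and 201 and 195 CPM in c without DRB. All 3 libraries with DRB lay below the 3 without. Counting either direction, the 2 groups did not overlap for 1 of 10 members and 10.3% of all genes. These groups pooled the genotypes, with more sko libraries with DRB and more c libraries without. The count of overlaps thus does not separate DRB from genotype, although Brip1 was also lower with DRB within each genotype. The log2 fold change was -0.31 ± 0.12 (adjusted p = 0.313, edgeR). The values of Recql4 (1.44 ± 0.92) and Recql (-0.43 ± 0.22) on the log2 scale were larger in size but had adjusted p of 0.561 and 0.444. For the interaction of DRB and genotype, edgeR called 0 of 10 members and 6 of 18178 genes (0.033%), 2 of them positive (0.011%) and 4 negative (0.022%), and 1 member, Ddx11, had an unadjusted p under 0.05; DESeq2 was not run for it. Of 102 genes tested in the 6 pathway lists, edgeR called 0 with DRB, and 16 had an unadjusted p under 0.05.

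In GV oocytes with cPDS, all 5 RecQ members fell, and 4 of them had less than 0.5 times the control level. One of the 4, Recql4, rested on few counts and lost its call in 2 of 11 alternatives. Rtel1 and Atrx rose by small amounts, and Brip1, Ddx11 and Pif1 were not called. Of 10 members tested, 2 were higher and 5 were lower, where 50.8% of 16115 genes were called, 23.4% higher and 27.4% lower. The 5 lower RecQ members had a median log2 fold change of -1.11, the 10 members one of -0.29 and all genes tested one of 0.01.

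Blm had 29.3, 32.1 and 32.0 CPM with cPDS, against 69.4, 66.9 and 64.6 CPM in GV_C. The groups were far apart and tight, and Blm fell by 1.11 ± 0.08 on the log2 scale (adjusted p = 1.80e-08, edgeR). Recql had 12.6, 8.79 and 10.6 CPM with cPDS, against 26.4, 23.3 and 24.2 CPM in GV_C, with no overlap. Its log2 fold change was -1.20 ± 0.12 (adjusted p = 9.14e-07, edgeR), while Pyroxd1, the gene on the other strand, had 1.07 to 2.48 CPM with cPDS and 2.03 to 2.12 CPM in GV_C.

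Recql5 had 12.1, 8.90 and 9.94 CPM with cPDS, against 19.8, 22.2 and 21.8 CPM in GV_C, and again no libraries overlapped. Recql5 fell by 1.04 ± 0.12 on the log2 scale (adjusted p = 3.09e-06, edgeR). Wrn changed less, with 43.2, 39.9 and 45.6 CPM with cPDS, against 53.0, 66.3 and 49.3 CPM in GV_C, and its groups were also apart. It fell by 0.39 ± 0.10 on the log2 scale (adjusted p = 0.00600, edgeR). Recql4 had 12, 6 and 36 counts with cPDS, against 71, 40 and 68 counts in GV_C, and a log2 fold change of -1.31 ± 0.41 (adjusted p = 0.0147, edgeR). That call was lost without GV_C replicate 3 (-1.16, adjusted p = 0.0642) and without cPDS replicate 1 (-1.15, adjusted p = 0.0532, edgeR). Mfsd3, which shares exon bases with Recql4, had 1.76, 2.48 and 1.72 CPM with cPDS, against 1.41, 1.12 and 1.37 CPM in GV_C (log2 fold change 0.59 ± 0.25, adjusted p = 0.0591, edgeR).

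Of the iron-sulphur helicases, Rtel1 rose and Brip1 and Ddx11 were not called. Rtel1 had 15.1, 19.4 and 17.3 CPM with cPDS, against 15.5, 11.6 and 12.1 CPM in GV_C, so that the lowest cPDS library was just below the highest control. Its log2 fold change was 0.40 ± 0.13 (adjusted p = 0.0190, edgeR), and the call was lost without GV_C replicate 2 (0.32, adjusted p = 0.0657), GV_C replicate 3 (0.35, 0.0815) or cPDS replicate 2 (0.32, 0.0817, edgeR). Brip1 had 225, 219 and 209 CPM with cPDS, against 247, 241 and 219 CPM in GV_C. These ranges overlapped, and the log2 fold change was -0.12 ± 0.07 (adjusted p = 0.169, edgeR).

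Ddx11 had 43.0, 46.3 and 45.5 CPM with cPDS, against 55.3, 46.2 and 49.8 CPM in GV_C. It was not called (log2 fold change -0.17 ± 0.09, adjusted p = 0.122), except without GV_C replicate 2 (-0.23, adjusted p = 0.0371, edgeR). Pif1 had 2.91, 1.72 and 2.73 CPM with cPDS, against 2.61, 2.86 and 3.09 CPM in GV_C, and the groups overlapped (adjusted p = 0.472, edgeR).

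Atrx had 798, 734 and 717 CPM with cPDS, against 676, 684 and 652 CPM in GV_C. No libraries overlapped, yet the difference was small, with a log2 fold change of 0.16 ± 0.06 (adjusted p = 0.0393, edgeR). It was called in 4 of 11 alternatives. Among those that lost the call were library size alone (adjusted p = 0.101), no filter on low counts (0.0662), and the fits without GV_C replicate 1 (0.0609), GV_C replicate 3 (0.166), cPDS replicate 1 (0.0907) or cPDS replicate 2 (0.0610, edgeR). Groups did not overlap for 6 of 10 members, beside 58.1% of all genes.

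Granulosa and cumulus markers summed to 94.0 to 109 CPM with cPDS and 117 to 121 CPM in GV_C, with Amh and Foxl2 at no more than 0.0638 and 0.0764 CPM with cPDS and 0.0304 and 0.0607 CPM in GV_C. Of 13 tested, Nr5a2 and Kitl were higher and Cyp19a1 (62.8 CPM with cPDS, 83.4 CPM in GV_C on average), Gja1 and Inhba were lower. Oocyte markers summed to 26326 to 30404 CPM with cPDS and 20082 to 23639 CPM in GV_C, with 7 of 12 higher and 3 lower. Immune, endothelial and blood markers summed to 16.8 to 17.5 CPM with cPDS and 56.7 to 60.4 CPM in GV_C, most of it Pecam1 at a mean of 13.6 CPM with cPDS and 55.3 CPM in GV_C. The globin genes Hba-a1 and Hbb-b1 were at 0 in both groups and Cdh5 with cPDS. Theca and stroma markers summed to 3.88 to 7.21 CPM with cPDS and 3.98 to 4.26 CPM in GV_C, with Col1a2 at 0 with cPDS and Dcn higher (3.45 CPM with cPDS, 2.12 CPM in GV_C on average). Their part in the members' changes was not tested.

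**Figure D4:**
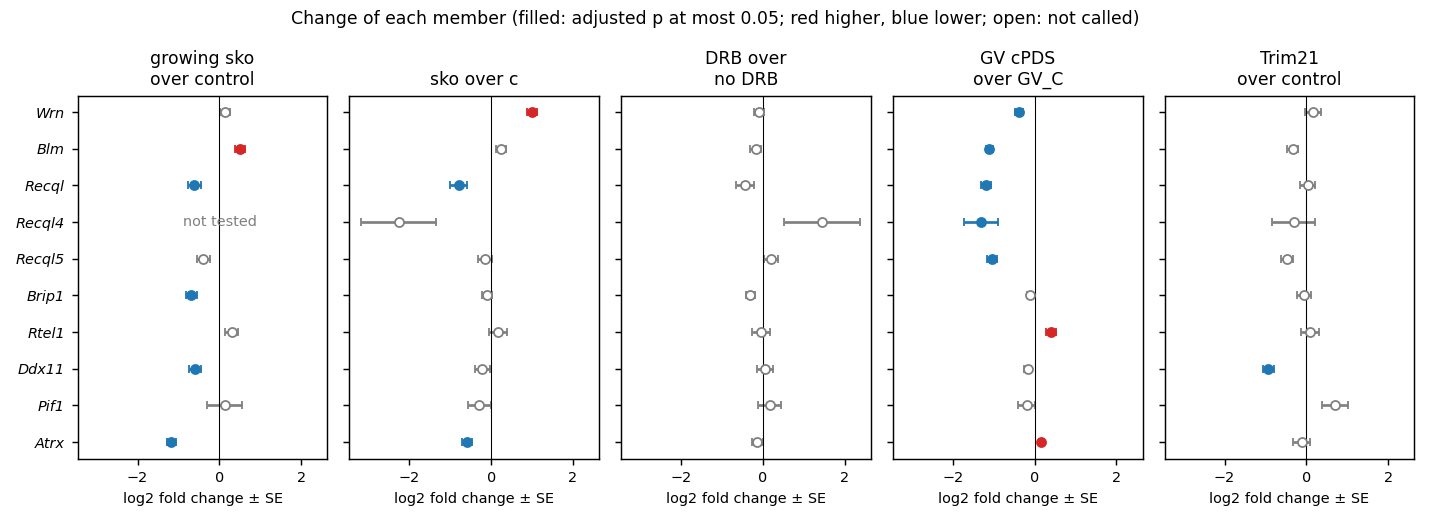
Log2 fold change of each gene, with bars of 1 SE, in 5 comparisons; filled points passed an adjusted p of 0.05 (red higher, blue lower) and open points did not. With cPDS the 5 RecQ genes lie left of 0, from -0.39 for Wrn to -1.31 for Recql4, whereas DRB has no filled point. The Recql4 values rest on few counts.

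Partners of these helicases were called in both directions with cPDS, beside 23.4% of all genes called higher and 27.4% lower. Of 17 RecQ and dissolution partners, 3 were higher and 7 were lower. Parp1, a sensor of DNA breaks, averaged 7.67 CPM with cPDS and 23.8 CPM in GV_C (log2 fold change -1.62 ± 0.11, adjusted p = 7.54e-09, edgeR), and Rpa1 fell by 0.68 ± 0.10 on the log2 scale. Of 18 Fanconi and BRCA1 partners, 7 were higher and 2 were lower, with a median log2 fold change of 0.20. Usp1 rose by 0.64 ± 0.08 and Palb2, which bridges BRCA1 and BRCA2, by 0.55 ± 0.07.

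Of 12 telomere partners, 6 were higher and 4 lower with cPDS. Terf1, which binds telomeric DNA, averaged 37.3 CPM with cPDS and 204 CPM in GV_C (log2 fold change -2.46 ± 0.13, adjusted p = 6.23e-10, edgeR). The telomere gene 2310004N24Rik, an older symbol of Ten1, was at -1.55 ± 0.13. Of 21 fork and cohesion partners, 5 were higher and 7 lower, with the checkpoint adaptor Clspn at -1.18 ± 0.10 and the cohesin acetyltransferase Esco1 at 0.67 ± 0.06. Of 14 iron-sulphur cluster genes, 3 were higher and 6 lower, with Ciapin1 at -1.60 ± 0.08 and the cysteine desulphurase Nfs1 at -1.37 ± 0.13. Of 22 Atrx and H3.3 partners, 10 were higher and 6 lower, with Ubn1, a subunit of the HIRA complex, at -0.85 ± 0.09 and the heterochromatin protein gene Cbx1 at -0.89 ± 0.09.

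In the Trim21 libraries, Ddx11 was the 1 member that passed the threshold. Of 10 members tested, 0 were higher and 1 was lower, where 11.5% of 14191 genes were called, 6.26% higher and 5.23% lower. The share of members called was near that of all genes. The median log2 fold change was -0.09 over the members and -0.01 over all genes tested.

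Ddx11 had 43.8, 41.1 and 48.7 CPM in Trim21 libraries, against 75.8, 96.3 and 83.7 CPM in Trim controls. The Trim21 libraries were close together and all far below the controls. Per exon length, Ddx11 averaged 20.5 RPKM in Trim controls and 10.7 RPKM in Trim21 libraries. Its means in the other control groups were 8.64 RPKM in c, 12.1 in GV_C and 12.4 in growing controls, a difference between experiments that was not tested. The log2 fold change was -0.93 ± 0.13 (adjusted p = 6.66e-04, edgeR), and it was called in all 11 alternatives, from -1.01 to -0.84. Recql5 had 21.1, 17.5 and 20.8 CPM in Trim21 libraries, against 26.5, 26.5 and 30.0 CPM in controls, with no overlap. Its log2 fold change of -0.47 ± 0.15 missed the threshold (adjusted p = 0.0603, edgeR) and passed with DESeq2 (0.0381) and without Trim control replicate 2 (0.0488, edgeR).

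Blm had 48.5, 48.6 and 55.1 CPM in Trim21 libraries, against 57.2, 73.6 and 61.5 CPM in controls, and Pif1 had 3.47, 2.41 and 2.95 CPM in Trim21 libraries, against 1.74, 1.71 and 2.11 CPM in controls. In both the groups were apart, but neither was called (adjusted p = 0.138 and 0.197, edgeR). With Ddx11 and Recql5 these made 4 of 10 members without overlap, beside 30.1% of all genes. The other 6 members had log2 fold changes between -0.31 (Recql4) and 0.15 (Wrn). Atrx varied between libraries of a group, with 417, 588 and 665 CPM in Trim21 libraries, against 515, 811 and 485 CPM in controls.

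Granulosa and cumulus markers summed to 70.1 to 81.4 CPM in Trim21 libraries and 49.8 to 55.0 CPM in controls, with Amh and Foxl2 at 0 in both groups. Of 7 tested, 1 was called, Cyp19a1, with 43.7 CPM in Trim21 libraries and 23.8 CPM in controls on average. Oocyte markers summed to 12888 to 15229 CPM in Trim21 libraries and 11694 to 15291 CPM in controls, and 1 of 12 was called, Ddx4, with 95.5 CPM in Trim21 libraries and 262 CPM in controls on average. Theca and stroma markers summed to 2.14 to 3.13 CPM in Trim21 libraries and 1.79 to 2.11 CPM in controls, with Cyp17a1 and Lum at 0 in both, and immune, endothelial and blood markers to 35.9 to 42.1 CPM in Trim21 libraries and 28.6 to 40.3 CPM in controls, with Ptprc, Cdh5 and Hbb-b1 at 0 in both. Their part in the lower level of Ddx11 in Trim21 libraries was not tested. Among the pathway lists, beside 11.5% of all genes called, the topoisomerase gene Top3a (1.53 ± 0.30), Pot1b (1.72 ± 0.21), Terf1 (0.45 ± 0.11) and Nubp2 (1.44 ± 0.16) were higher and Top2b (-0.43 ± 0.13) lower on the log2 scale. They belong to 3 lists. Of 17 RecQ and dissolution partners, 1 was higher and 1 lower, and of 12 telomere partners, 2 were higher and 0 lower. Of 14 iron-sulphur cluster genes, 1 was higher and 1 lower, beside 6.26% of all genes higher and 5.23% lower. Of the other lists, edgeR called 0 of 17 Fanconi and BRCA1 partners, 0 of 21 fork and cohesion partners and 0 of 22 Atrx and H3.3 partners. Of these, 2, 4 and 2 had an unadjusted p under 0.05.

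Across the comparisons, Recql was lower in 3 of 5 and higher in 0, and Pif1 was not called in any of the 5. Atrx was lower in both sko comparisons. With cPDS it was called higher, by 0.16 ± 0.06 on the log2 scale, a call held in 4 of 11 alternatives. Wrn rose in sko libraries of the DRB experiment and fell with cPDS, and Blm rose in growing sko oocytes and fell with cPDS. The comparisons of sko and DRB share their 6 libraries.

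The members' patterns were also described over the 24 libraries, as Pearson's r of log2 CPM with the mean of each experiment removed. Libraries of a group share a treatment, so the points are not independent. Recql4 was not tested in growing oocytes and was left out. The highest r among the other 9 members was 0.83 for Brip1 and Atrx, followed by 0.66 for Recql and Recql5 and 0.62 for Blm and Recql5. The lowest was -0.54 for Rtel1 and Recql. Of 12712 genes tested in all 4 experiments, those most like Atrx were Jhdm1d (r = 0.96), Cenpf (0.96) and Ktn1 (0.94), and those most like Wrn were Tjp1 (0.92), Daam1 (0.89) and Pik3r1 (0.88).

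For Blm the most similar genes were Bclaf1, Klhl12 and Nap1l4, with r of 0.93, 0.92 and 0.92. For Recql they were Ap1m1, Mn1 and Gab3 (0.94, 0.93 and 0.92), and for Recql5 they were Zfp821, Ehd1 and Nipsnap1 (0.95, 0.93 and 0.92). For Brip1 they were Top2a, Dlgap5 and Usp10 (0.89, 0.86 and 0.86). For Ddx11 they were 5830417I10Rik, Tmem201 and Clec2f-ps (0.88, 0.87 and 0.83). The best matches were weaker for Rtel1 (Myo5a, Ankhd1 and Gm16023 at 0.79, 0.77 and 0.76) and Pif1 (Nmnat2, 4930427A07Rik and Pex5 at 0.78, 0.71 and 0.68).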

How the data were processed

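RNA was sequenced from mouse oocytes. The deposited values are raw counts of reads in each gene, laid out as featureCounts writes them, per the file headers. Tools named in the submitters' processing notes, for all assays together, include featureCounts 2.0.1, STAR 2.5.2b, HISAT2 2.1.0, cutadapt 1.15 and fastp 0.21.0, with mouse build mm9. Which of them made these tables is not given in the sources used here, nor is the strand setting or the handling of multiply assigned reads, so genes that overlap on opposite strands were read as uncertain. In the Trim table, 33581 of 37310 rows took a symbol through exons identical to those of a gene in the other table.

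Tests used edgeR 4.0.16 (R 4.3.3), for each experiment on its own libraries: filterByExpr (minimum count 10), TMM factors, a quasi-likelihood test and Benjamini-Hochberg adjustment over every gene in the fit, with a threshold of 0.05. The DRB experiment was fitted on 6 libraries with genotype and DRB as terms. The standard error (SE) of a log2 fold change was its size divided by the root of F, and can be too small where counts are few. CPM used the TMM-scaled library size, and RPKM divided it by the exon length of the file. Means are given with SD. Patterns used log2 CPM with a prior count of 2.

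The 2 groups compared share replicate numbers in the GV and Trim experiments. A check of the numbers gave no sign of pairing, though it could not exclude it, and the main fits used no block. Alternatives were library size alone, RLE factors, DESeq2 1.42.0, no filter on low counts, each library left out, other terms and a replicate block; leaving out libraries in the comparison of the sko changes was added after seeing the data. The fits were tested on simulated data. Named genes were all 10 members, Dhx36 and Trim21, in each pathway list the 2 called genes with the smallest p, and the 3 genes most similar to each member. The members and lists were chosen with earlier results of these data known. The total count of a library sets the precision, and the values of the lowest genes, Recql4 and Pif1, rest on few counts. Promoter sequences are from RefSeq on GRCm38.p6, a build other than that of the counts, and were matched by symbol. A gene of the iron-sulphur list that the naming rule picks is not reported here, although the counts of that list include it.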

Additional observations from a re-analysis of the deposited data

Results flagged for a closer look

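The sko change of Wrn differed between the experiments. Sko over control in growing oocytes minus sko over c in the DRB experiment was -0.84 ± 0.17 on the log2 scale (adjusted p = 0.00230, edgeR), with a change of 0.14 ± 0.12 in growing oocytes that was not called and a rise of 1.00 ± 0.12 in the DRB experiment, seen in 3 of 3 sko libraries. The sko change of Atrx differed by -0.56 ± 0.17 (adjusted p = 0.0353, edgeR), with a lower level in 3 of 3 sko libraries of both experiments and a larger fall in growing oocytes.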

How the results depend on the processing

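No member reversed a called direction. With cPDS 7 members were called, and 4 to 7 when 1 library was left out, the lowest without GV_C replicate 3. With Trim21, 1 member was called, 2 by DESeq2 (Ddx11 and Recql5) and 1 to 2 when 1 library was left out. In the test between the sko changes 2 were called, 1 with library size alone and 1 to 3 when 1 library was left out. The counts of members called in growing oocytes, by genotype in the DRB experiment and with DRB stayed within 1.5 times.

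Over all genes, 6043 were called by genotype in the DRB experiment, 3678 without c_DRB replicate 3, 4019 without rhau_sko replicate 5 and 3775 among libraries without DRB. With DRB, 2 were called, 492 with no filter on low counts, 471 by DESeq2, 0 without genotype as a term, 6 in sko and 7 in c alone, and 1 to 8 when 1 library was left out. With Trim21, 1630 were called, and 1043 and 928 without Trim21 replicates 1 and 3. In the test between the sko changes 2188 were called, and 1160 without rhau_sko replicate 5. The interaction of DRB and genotype gave 6, and 272 with no filter.

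The replicate numbers did not pair the libraries: deviations of same-numbered libraries correlated at -0.06 to -0.03 in the GV experiment and -0.05 to 0.09 in the Trim experiment. With the replicate block, 6 members were called with cPDS, Atrx being lost (log2 fold change 0.16, adjusted p = 0.0988, edgeR), and 1 with Trim21. The groups of the other experiments share no numbers.

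Depth limits Recql4 and Pif1 most, with 1 to 71 and 18 to 178 counts per library. The DRB experiment rests on 1 library each of rhau_sko and c_DRB, assumed to vary like the others. Causes of these differences were not tested.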
